A study of Mus musculus with 21 samples.

Results

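UNC1999 and JQEZ5, both inhibitors of the histone methyltransferase complex PRC2, were compared directly with each other in mouse acute myeloid leukaemia cells, gene by gene, at the same concentration and after the same time. The comparison takes the 3 libraries of cells given UNC1999 and the 3 libraries of cells given JQEZ5, 6 of the 21 RNA sequencing libraries of the series, and covers every gene of their shared expression table. All these cells belong to 1 established line transformed by a Flag-tagged fusion of the nucleoporin NUP98 with the methyltransferase NSD1, and all grew in medium with serum and mouse stem cell factor (mSCF). UNC1999 and JQEZ5 were each given at 3 µM for 4 days, and 3 libraries of DMSO-treated cells from the same table, at the same time, give the level without inhibitor. Whether the line is 1 clone is not given in the labels. Lentiviral vectors with puromycin selection, either empty (shEV) or with a short hairpin RNA against Kdm5b (shKdm5b), made 3 libraries each in the same line, used only for values set beside those of the inhibitors. Replicates are not described as separate cultures, and p-values then cover only the spread between these libraries, which can be technical.

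PRC2 places methyl groups on lysine 27 of histone H3 through its catalytic subunits EZH2 or EZH1, which need EED and SUZ12 to work, and the mark keeps developmental and differentiation genes silent. UNC1999 is known as an inhibitor of both EZH2 and EZH1, and JQEZ5 as an inhibitor of EZH2. In myeloid leukaemia, blocking the complex is known to release genes of mature myeloid cells, while dividing progenitors keep high levels of genes for granule proteases, DNA replication and ribosome building.

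The inhibitor table gave total counts of 12812646 to 18928764 per library. UNC1999 replicate 3 was the shallowest of the 9 and stood apart from the rest, with 294 genes at 0 against 92 to 143 in each of the others. Only 8 of the tested genes were at 0 in it, and the median count elsewhere of the genes at 0 only there was 7.88. Some of the leading counts are therefore also given without it. It correlated with the other UNC1999 libraries at r of 0.9943 and 0.9946, and every other pair within a group of the inhibitor table at 0.997 or more. Levels are normalised read counts, and differences are log2 differences of the deposited variance-stabilised values (UNC1999 minus JQEZ5) with their SE, a scale that understates changes of low genes. A gene was called where the limma adjusted p was under 0.05. Markers of red cells and lymphocytes were low. The table listed 3 of 12 erythroid markers and 3 of 15 T and NK cell markers, none of them high enough to be tested. The erythroid markers summed to 67.4 to 72.3 normalised counts per library with UNC1999, 39.7 to 45.9 with JQEZ5 and 68 to 89.1 with DMSO. The T and NK cell markers summed to 48 to 62.5, 40.1 to 57.6 and 41 to 63.5, and the 3 listed of 12 B cell markers to 167 to 198, 149 to 157 and 230 to 279. Other lists were not low. The 8 listed megakaryocyte and platelet markers summed to 1977 to 2034 with UNC1999, 974 to 1052 with JQEZ5 and 360 to 404 with DMSO, mostly from Vwf. The 4 listed dendritic cell markers summed to 2196 to 2325, 2057 to 2294 and 2367 to 2515, and the 5 listed stromal and endothelial markers to 1789 to 1855, 1907 to 2043 and 2367 to 2533. No listed marker of these lists was at 0 in all 9 libraries. Their part in the results was not tested. Defining genes of myeloid cells were abundant, with the myeloid transcription factor gene Spi1 at 3642 to 4310 in all 9 libraries.

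The compounds left different transcriptomes. Between UNC1999 and JQEZ5, limma called 3892 of 10694 tested genes (36.4%), with 2003 higher (18.7%) and 1889 lower (17.7%) with UNC1999. These shares are the background for the counts within gene lists below. Most differences were small. The median called gene differed 1.21-fold in either direction, and the upper quartile was 1.34-fold among higher and 1.29-fold among lower genes. The tail was one-sided: 266 called genes were at least 1.5-fold higher with UNC1999 and 78 at least 1.5-fold lower. At 2-fold the counts were 59 higher (0.552% of tested genes) and 7 lower (0.0655%), and the 7 were all predicted genes without an established name. With no filter on low values these counts were 134 and 44, and with a filter at 2 log2 units 27 and 2. The lower count was 3 without UNC1999 replicate 3 and 21 without UNC1999 replicate 1. Without UNC1999 replicate 3, 1961 genes were higher and 1866 lower, of which 1753 and 1623 were the same genes. The root mean square log2 difference over tested genes was 0.173 between the means of the inhibitor groups, against 0.265 between UNC1999 and DMSO and 0.161 between JQEZ5 and DMSO. Pairs of single libraries within the UNC1999 group were 0.0977 to 0.147 apart and pairs within the JQEZ5 group 0.0888 to 0.114, and a UNC1999 and a JQEZ5 library were 0.18 to 0.219 apart. On the first principal component of the 9 libraries, which held 65.5% of the variance, JQEZ5 libraries lay between DMSO and UNC1999. On the second, with 13%, the JQEZ5 libraries stood apart from both.

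**Figure D1:**
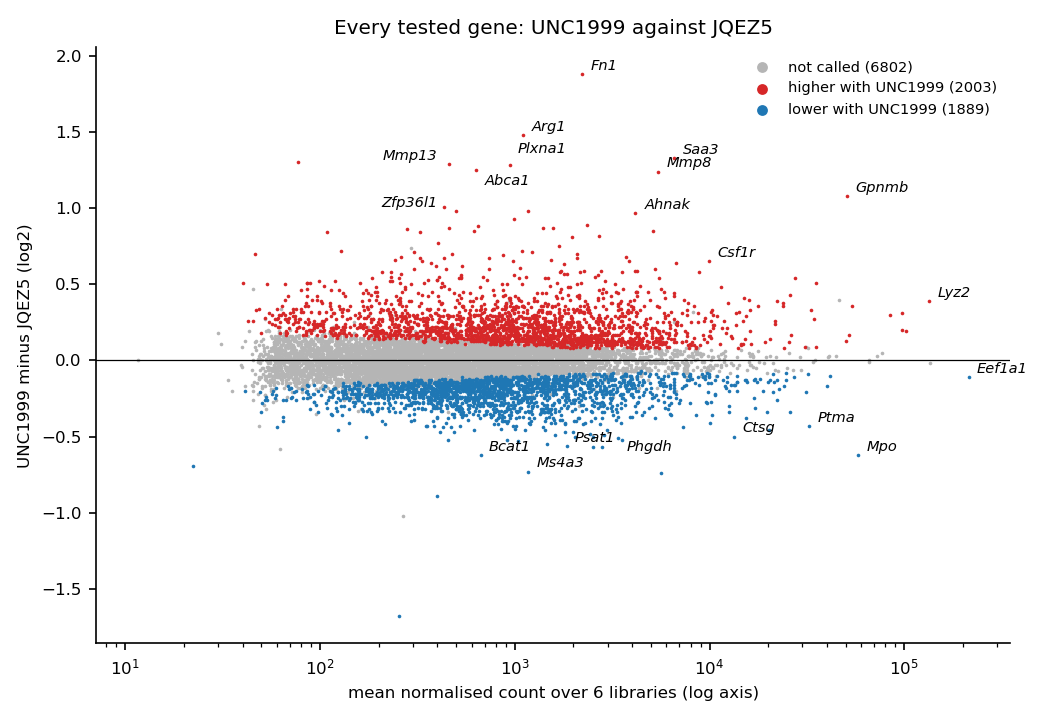
Each point is 1 of 10694 tested genes, placed by its mean normalised count over the 6 UNC1999 and JQEZ5 libraries (log axis) and its log2 difference, with genes called higher with UNC1999 in red, lower in blue and the rest in grey. The upper tail reaches 1.88 at Fn1, while Ms4a3 is at -0.73.

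Genes of the extracellular matrix and of its breakdown led the difference. Fibronectin (Fn1; chromosome 1, 71585520 to 71653200, minus strand, GRCm38) read 3568, 3494 and 3807 normalised counts in the UNC1999 libraries, 849, 817 and 813 in the JQEZ5 libraries and 756, 788 and 722 in DMSO. The JQEZ5 libraries of this matrix glycoprotein sat just above those of DMSO, and each UNC1999 library stood far above both groups. The UNC1999 level was 4.39 times that of JQEZ5 (log2 difference 1.88 ± 0.04, limma adjusted p = 8.26e-14), while JQEZ5 against DMSO gave a log2 difference of 0.10, which missed the threshold (limma adjusted p = 0.0775). Mmp13, a collagenase on chromosome 9 (7272514 to 7283331, plus strand), was at 681, 750 and 760 with UNC1999, 184, 195 and 188 with JQEZ5 and 55.3, 43.4 and 57 with DMSO. Mmp8, the collagenase of neutrophil granules, was at 7824, 7889 and 7492 against 3026, 3238 and 3150. Adam8, a membrane-bound metalloprotease of leukocytes, was at 1546, 1647 and 1680 against 757, 678 and 719. All 3 proteases separated the inhibitors without overlap, with UNC1999 at 3.86, 2.47 and 2.26 times JQEZ5 (adjusted p between 3.83e-13 and 3.18e-10, limma). Over all tested genes, the UNC1999 libraries lay wholly above those of JQEZ5 in 23.1% and wholly below in 22.1%. Separation was thus common, and it is given here and below only as a description. Genes named for the largest differences were chosen among called genes without overlap, so for them separation was fixed by the choice. Of 17 tested matrix and remodelling genes, 15 were higher with UNC1999 and none lower (13 to 15 higher with 1 library left out). Their median log2 difference was 0.42, where the median of all tested genes was -0.001. Plaur, the urokinase receptor, had a difference of -0.06 with a 95% interval of -0.14 to 0.02 (limma adjusted p = 0.259). In bulk RNA, fewer cells of a type and less RNA per cell cannot be told apart, for these genes as for all that follow.

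**Figure D2:**
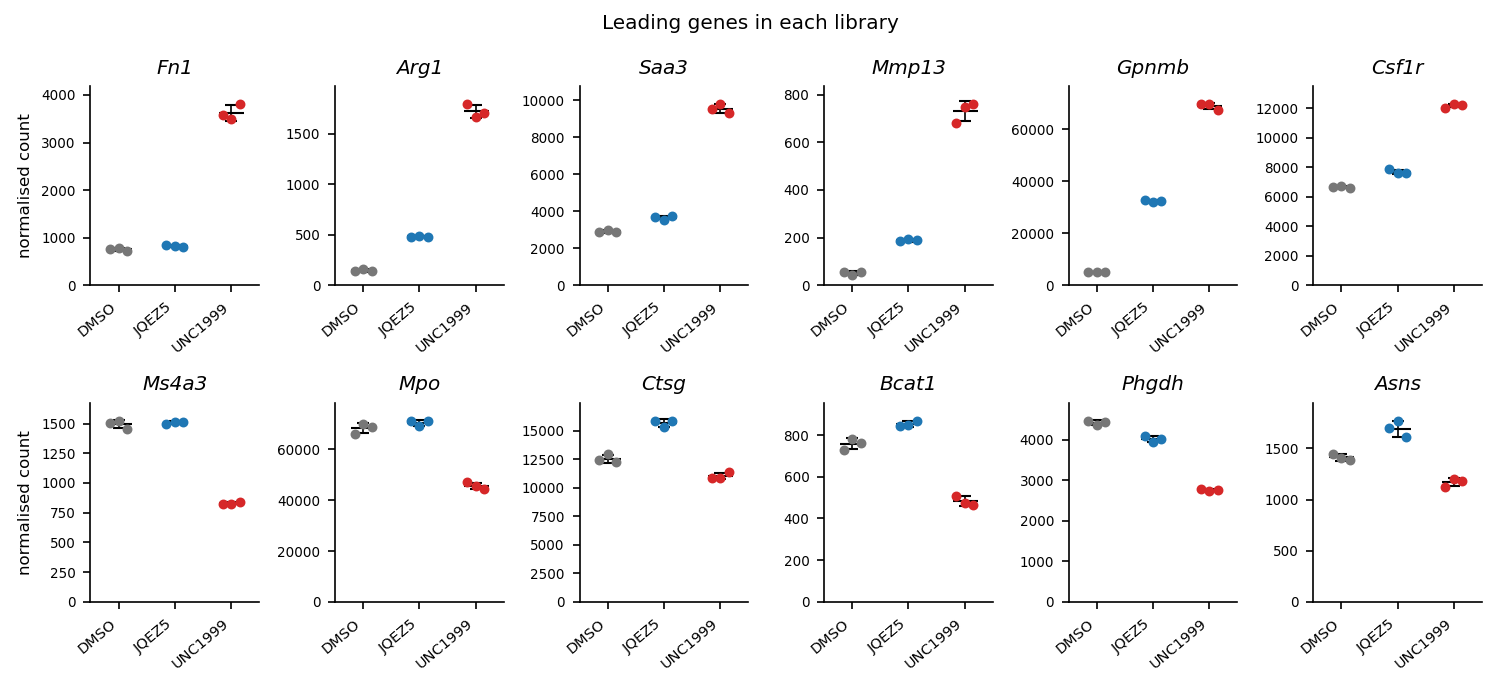
Normalised counts of 12 genes in each library (points) with group means and SD (n = 3), for DMSO in grey, JQEZ5 in blue and UNC1999 in red, on linear axes from 0. In the upper row UNC1999 is above both other groups, and in the lower row it is below both.

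Genes of monocytes and macrophages followed the same direction. Gpnmb, a lysosomal glycoprotein of macrophages (chromosome 6, 49036546 to 49070929, plus strand), read 69745, 69663 and 67646 with UNC1999, 32826, 31997 and 32588 with JQEZ5 and 5144, 5243 and 5278 with DMSO. Here both inhibitors were far above DMSO, and UNC1999 lay a further 2.13-fold above JQEZ5 (limma adjusted p = 9.48e-14). The receptor for macrophage colony-stimulating factor, Csf1r, differed in another way. Its levels were 12030, 12268 and 12206 with UNC1999, 7842, 7627 and 7618 with JQEZ5 and 6661, 6736 and 6581 with DMSO, so that JQEZ5 was 1.16-fold and UNC1999 1.83-fold above DMSO, and UNC1999 was 1.58-fold above JQEZ5 (limma adjusted p = 1.23e-10). Adgre1, the gene of the F4/80 antigen, was 1.97-fold and the endosomal glycoprotein gene Cd68 1.62-fold higher with UNC1999. Among the 22 tested members of the monocyte and macrophage list, 18 were called higher with UNC1999 and none lower (median 0.32), and without UNC1999 replicate 3 it was 19. The 24 listed members summed to 333141 to 345419 normalised counts per library with UNC1999, 237052 to 238565 with JQEZ5 and 140221 to 142840 with DMSO. A pair of inflammatory monocyte markers did not pass. Ccr2 had a difference of 0.01 (95% interval -0.08 to 0.10) and Ly6c2 of 0.01 (-0.05 to 0.07). Ly6c2, at 4251, 4135 and 4081 with UNC1999 and 4155, 4146 and 4107 with JQEZ5, was above the 3045, 3139 and 3136 of DMSO in every inhibitor library.

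Lysosomal genes were higher with UNC1999 as a broad, shallow group. Of 27 tested hydrolase, membrane protein and proton pump genes, 24 were higher and none lower (23 without UNC1999 replicate 3), with a median of 0.25 and a highest difference of 0.68. The cysteine protease gene Ctsb was at 32509, 32855 and 32432 with UNC1999, 22501, 22178 and 22398 with JQEZ5 and 13900, 14097 and 14168 with DMSO. Ctss, another cathepsin, was 1.65-fold higher with UNC1999, Ctsl 1.32-fold and the aspartic protease gene Ctsd 1.29-fold (adjusted p of these 4 between 2.99e-10 and 1.87e-08, limma). Ctsd was at 61081, 59838 and 60184 with UNC1999 and at 47479, 46267 and 46969 with JQEZ5, with no overlap. For the pump subunit gene Atp6v1h the difference was -0.03 (95% interval -0.12 to 0.06). A palindromic E-box, CACGTG, is the core of the element that factors of the MiT/TFE family read in lysosomal promoters. It was present on 9 of 20 promoter windows of the called lysosomal genes (45%), against 10.4% of the windows of all tested genes and 7.15% of all windows in the RefSeq table (GRCm38.p6; each window is 300 bases, from 250 before to 50 after the start, both strands searched). Of the tested genes, 7817 had such a window, and some had more than 1. The match is a description of letters and not of binding. The Ctsd promoter is shown for its E-box, which is in capitals and begins 98 bases before the start; the 150 bases before the start lie at chr7:142387828-142387977 on the minus strand.
Ctsd: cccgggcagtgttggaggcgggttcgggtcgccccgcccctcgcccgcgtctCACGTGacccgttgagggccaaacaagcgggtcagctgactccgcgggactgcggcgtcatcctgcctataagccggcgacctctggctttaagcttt
The genes of the MiT/TFE factors themselves differed unequally. Mitf and Tfe3 were higher with UNC1999, with log2 differences of 0.37 and 0.16 (limma adjusted p = 1.86e-05 and 0.00435), Tfeb had a difference of 0.08 that missed the threshold (limma adjusted p = 0.234), and Tfec, at 3278, 3290 and 3208 against 3861, 3990 and 3899, was lower (0.832 times JQEZ5, limma adjusted p = 6.14e-06).

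Inflammatory mediators were mostly higher with UNC1999, with 2 chemokines as exceptions. Arg1, the arginase of alternatively activated macrophages, was at 1795, 1669 and 1711 with UNC1999, 482, 486 and 483 with JQEZ5 and 146, 160 and 137 with DMSO, a 3.57-fold difference between the inhibitors (limma adjusted p = 2.33e-12). Saa3, a serum amyloid of the acute phase, was at 9554, 9793 and 9293 against 3688, 3552 and 3732. Irg1, which makes itaconate, was at 3563, 3385 and 3600 against 1855, 1961 and 1858, and Il1b, the cytokine interleukin 1 beta, at 1277, 1321 and 1495 against 603, 623 and 611. In all 4 genes each UNC1999 library was above each JQEZ5 library. Of 19 tested chemokine, cytokine and inflammatory genes, 13 were higher with UNC1999 and 2 lower (median 0.28). The 2 lower ones were the chemokine genes Ccl3 and Ccl9. Ccl3 was at 3570, 3678 and 3607 with UNC1999, 4319, 4227 and 4313 with JQEZ5 and 2218, 2170 and 2267 with DMSO, so it was the JQEZ5 libraries that were highest (limma adjusted p = 2e-05). Ccl4 was close to 2.8-fold above DMSO with each inhibitor (2.81 and 2.82 times), and the difference between them was -0.01 (95% interval -0.12 to 0.10).

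Receptors and immediate early genes gave smaller differences. Of 19 tested growth factor and chemokine receptor genes, 12 were higher with UNC1999 (63.2%, against 18.7% of all tested genes) and none lower. The interleukin 7 receptor gene Il7r was at 846, 906 and 954 with UNC1999, 425, 370 and 401 with JQEZ5 and 51.3, 55.7 and 66 with DMSO. Tnfrsf1b, the second TNF receptor, was 1.35-fold higher with UNC1999, and Csf2rb2 and Csf2rb, 2 close paralogs between which reads may be split, were 1.58-fold and 1.33-fold higher (adjusted p of these 4 between 6.28e-09 and 1.33e-07, limma). The chemokine receptor gene Cxcr4 had a difference of 0.00 (95% interval -0.08 to 0.08). Of 19 tested immediate early and AP-1 genes, 11 were higher (57.9%, against 18.7% of all tested genes) and none lower (median 0.16). The stress-induced factor Atf3 was at 2300, 2181 and 2157 with UNC1999 and 1688, 1587 and 1584 with JQEZ5, and the mRNA decay factor Zfp36 at 885, 979 and 939 against 641, 587 and 632. Zfp36l1, a relative of the latter in the decay of AU-rich mRNAs, behaved otherwise: it was at 692, 778 and 709 with UNC1999, 279, 268 and 267 with JQEZ5 and 330, 318 and 309 with DMSO. JQEZ5 was thus 0.852 times DMSO (limma adjusted p = 0.0369) and UNC1999 2.67 times JQEZ5 (limma adjusted p = 6.82e-10).

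Myeloid transcription factors were split between genes that differed and genes that did not pass. Maf, a macrophage factor, was at 2301, 2326 and 1880 with UNC1999, 1210, 1178 and 1201 with JQEZ5 and 725, 659 and 701 with DMSO, and Bhlhe41 at 3367, 3474 and 3271, 2186, 2172 and 2153, and 868, 862 and 841. In both genes the 3 groups formed 3 separate steps. Id2 and Klf6 were 1.32-fold and 1.26-fold higher with UNC1999. Of 22 tested factors, 11 were higher and 2 lower (59.1% called, against 36.4% of all tested genes, median 0.11). The lineage factors Spi1 and Cebpb had differences of 0.00 (95% interval -0.09 to 0.10) and 0.00 (-0.13 to 0.12), so any difference in them was small against those in the macrophage genes.

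Granule genes were called in both directions in nearly equal number. All 17 tested members were called, 9 higher and 8 lower with UNC1999. The lower ones were led by proteins of the azurophil granules that promyelocytes fill. Myeloperoxidase (Mpo; chromosome 11, 87793581 to 87804413, plus strand) was at 47010, 45681 and 44570 with UNC1999, 71353, 69143 and 71107 with JQEZ5 and 66065, 70107 and 69003 with DMSO. Ms4a3, a membrane protein of granulocyte and monocyte progenitors (chromosome 19, 11629496 to 11640851, minus strand), was at 826, 822 and 837 with UNC1999, 1497, 1517 and 1517 with JQEZ5 and 1509, 1525 and 1455 with DMSO. In both genes the JQEZ5 and DMSO libraries overlapped, the log2 differences between those groups being 0.04 and 0.01 (limma adjusted p = 0.303 and 0.841), and the UNC1999 libraries were below all of them. Cathepsin G (Ctsg) was at 10856, 10879 and 11352 with UNC1999, 15871, 15291 and 15869 with JQEZ5 and 12409, 12940 and 12271 with DMSO. It was 1.25-fold higher with JQEZ5 than with DMSO (limma adjusted p = 1e-06) and 0.88 times DMSO with UNC1999 (limma adjusted p = 0.000106). Prtn3, the gene of proteinase 3, was at 0.763 times the JQEZ5 level. Both genes encode serine proteases of the same granules. The higher ones included the calprotectin genes S100a8, at 1113, 1120 and 1131 against 612, 635 and 604, and S100a9, at 409, 406 and 416 against 146, 169 and 133, where DMSO held 6.91, 22.3 and 15. Fcnb, a ficolin of myeloid cells, was 1.91-fold higher with UNC1999. Ctsc, the protease that activates granule serine proteases, was at 2446, 2414 and 2422 with UNC1999, 1689, 1809 and 1783 with JQEZ5 and 2688, 2629 and 2547 with DMSO, so here JQEZ5 was the lowest group.

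**Figure D3:**
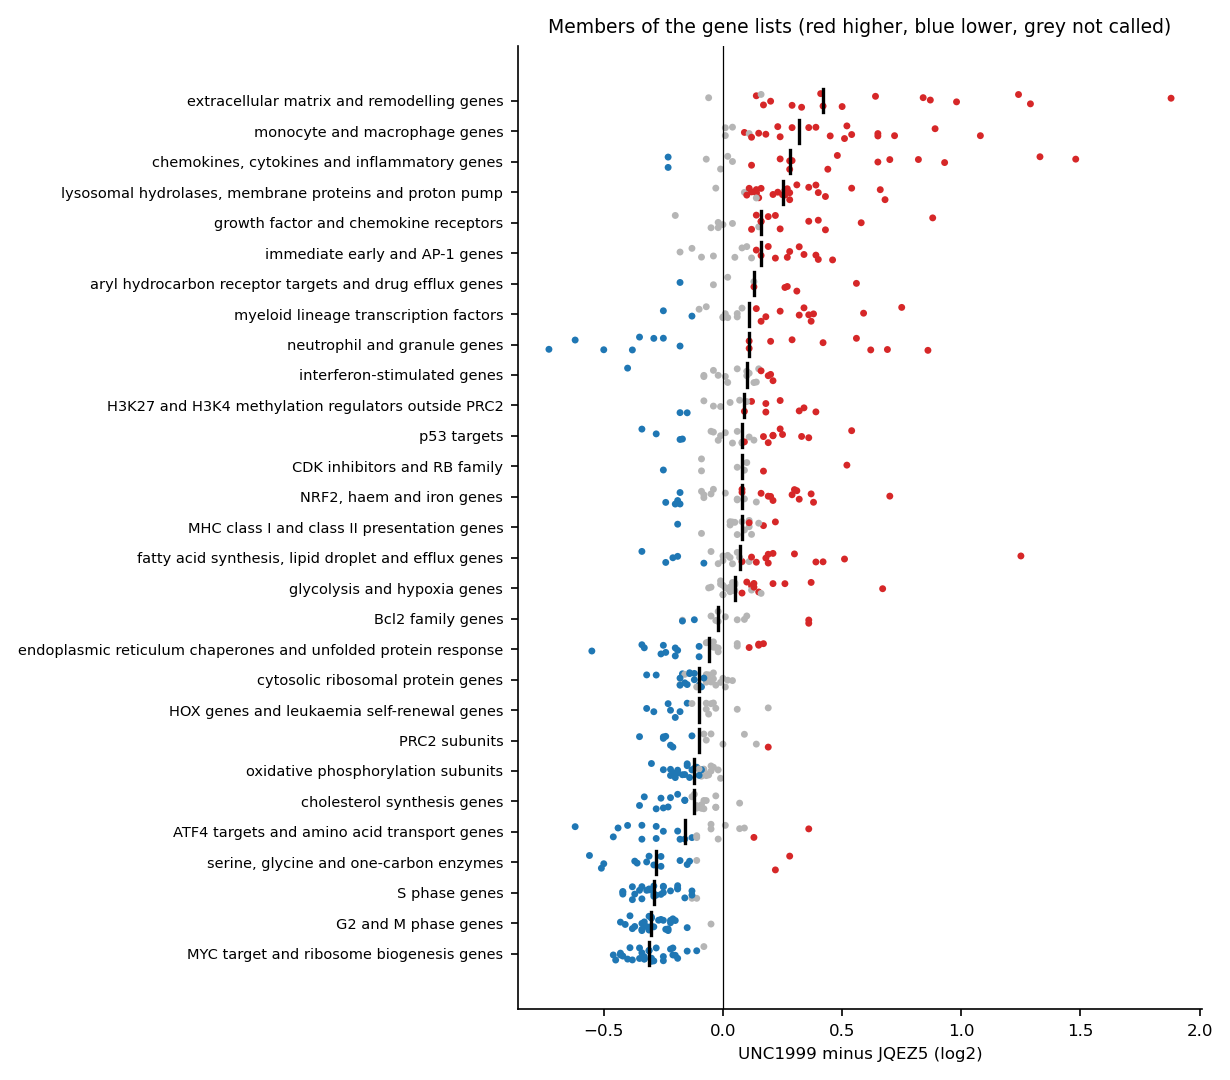
Each point is 1 tested member of a gene list, placed by its log2 difference between UNC1999 and JQEZ5, red where called higher, blue where called lower and grey otherwise, and black bars mark list medians. Lists run from MYC target and ribosome biogenesis genes (median -0.31) to extracellular matrix genes (median 0.42), and the neutrophil and granule list spreads to both sides.

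Cell cycle genes were lower with UNC1999 almost without exception. Of 30 S phase genes 28 were lower and none higher (median -0.29), and of 30 G2 and M phase genes 29 were lower and none higher (median -0.30). Without UNC1999 replicate 3 the counts were 27 and 29. The replicative helicase gene Mcm7 was at 2343, 2375 and 2234 with UNC1999, 3213, 3178 and 3131 with JQEZ5 and 3509, 3594 and 3747 with DMSO. Rrm1, the large subunit of ribonucleotide reductase, was at 2398, 2472 and 2376, 3135, 3234 and 3232, and 3703, 3647 and 3692. Ube2c, the ubiquitin-conjugating enzyme of the anaphase-promoting complex, was at 779, 820 and 815, 1181, 1174 and 1114, and 1206, 1281 and 1261. Each UNC1999 library was below each JQEZ5 library in these 3 genes, and their levels were 0.73, 0.755 and 0.696 times those of JQEZ5 (adjusted p between 1.52e-07 and 5.73e-07, limma). Mcm3 and Mcm6, of the same helicase, were at 0.762 and 0.759 times JQEZ5, and the mitotic checkpoint kinase gene Bub1b and the cyclin-dependent kinase gene Cdk1 at 0.739 and 0.759. The dividing-cell marker Mki67 was the exception in the mitotic list. It was at 4786, 4758 and 4440 with UNC1999, 4659, 4937 and 4872 with JQEZ5 and 6101, 5683 and 5905 with DMSO, with a difference between inhibitors of -0.05 (95% interval -0.12 to 0.03). The replication factors Gins2 and Gins3 also did not pass, with differences of -0.11 (-0.23 to 0.02) and -0.13 (-0.26 to -0.01). Against DMSO, 14 of the S phase genes were lower with JQEZ5 (10.5% of all tested genes) and 29 with UNC1999 (24% of all tested genes). Of the mitotic genes it was 18 and 30, and no gene of either list was higher with either compound. These comparisons share libraries with the direct one.

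The promoters of the cell cycle genes carry the letters by which such genes are usually recognised. The E2F factors that drive S phase genes read TTCCCGC or TTGGCGC, and 13 of 26 promoter windows of the called S phase genes held 1 of them (50%), against 12.4% of the windows of all tested genes and 6.81% of all windows. The cell cycle homology region of mitotic genes, TTTGAA, is read by the MuvB complex and stood on 20 of 26 windows of the called G2 and M phase genes (76.9%), against 12.2% and 17.9%. The CCAAT box of the factor NF-Y was on 21 of those 26 (80.8%), against 38.3% and 37.4%. Both strands were searched, and no motif contains another. Over all called genes E2F letters were on 18.7% of the windows of lower and 9.28% of higher genes. A pair of promoters is printed to show where the letters sit, with the match in capitals: the E2F letters in Rrm1 begin 67 bases before the start (chr7:102441545-102441694, plus strand), and the homology region in Ube2c begins 29 bases before it (chr2:164769779-164769928, plus strand), where it is read on the other strand.
Rrm1: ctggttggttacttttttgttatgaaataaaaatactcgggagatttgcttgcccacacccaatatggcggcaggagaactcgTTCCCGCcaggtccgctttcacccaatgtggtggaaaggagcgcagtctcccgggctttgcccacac
Ube2c: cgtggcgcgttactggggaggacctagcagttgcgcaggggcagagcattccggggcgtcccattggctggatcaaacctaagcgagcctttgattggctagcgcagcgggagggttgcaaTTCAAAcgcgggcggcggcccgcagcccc

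Genes of ribosome building were lower with UNC1999 than with JQEZ5, and for some of them the compounds lay on opposite sides of DMSO. Nucleolin (Ncl) was at 17071, 17554 and 16463 with UNC1999, 22590, 24785 and 22957 with JQEZ5 and 21649, 21198 and 21312 with DMSO. Every JQEZ5 library was above, and every UNC1999 library below, every DMSO library. JQEZ5 was 1.1-fold above DMSO (limma adjusted p = 0.0111), and UNC1999 was at 0.796 times DMSO (limma adjusted p = 1.15e-06) and 0.726 times JQEZ5 (limma adjusted p = 9.01e-08). Nop58, a core protein of small nucleolar ribonucleoproteins, was at 1728, 1712 and 1831 with UNC1999, 2276, 2418 and 2465 with JQEZ5 and 2191, 2180 and 2150 with DMSO. Among 30 MYC target and ribosome biogenesis genes, 29 lay lower under UNC1999 than under JQEZ5 and none higher (28 without UNC1999 replicate 3), with a median of -0.31. Against DMSO 7 of them were higher with JQEZ5 (13.1% of all tested genes) and none lower, whereas none was higher and 28 were lower with UNC1999. Nolc1 and Mybbp1a, nucleolar proteins, were at 0.722 and 0.781 times JQEZ5, and Pa2g4, a growth-regulated protein of pre-ribosomes, at 2888, 2870 and 2852 against 4220, 4134 and 4306. Polr1a, the large subunit of RNA polymerase I, had a difference of -0.08 (95% interval -0.18 to 0.02, limma adjusted p = 0.229). Myc itself was at 2958, 2982 and 2817 with UNC1999, 3494, 3328 and 3478 with JQEZ5 and 2857, 3068 and 2921 with DMSO. Its JQEZ5 libraries were above the rest, and those of UNC1999 and DMSO overlapped (0.99 times DMSO, limma adjusted p = 0.778). The stem cell factor receptor gene Kit was arranged alike, 1.18-fold above DMSO with JQEZ5 and 0.842 times JQEZ5 with UNC1999. The progenitor factor Myb was highest with JQEZ5, at 3774, 3710 and 3618, and lowest with UNC1999, at 2931, 3080 and 2912, with DMSO between them at 3471, 3190 and 3271.

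**Figure D4:**
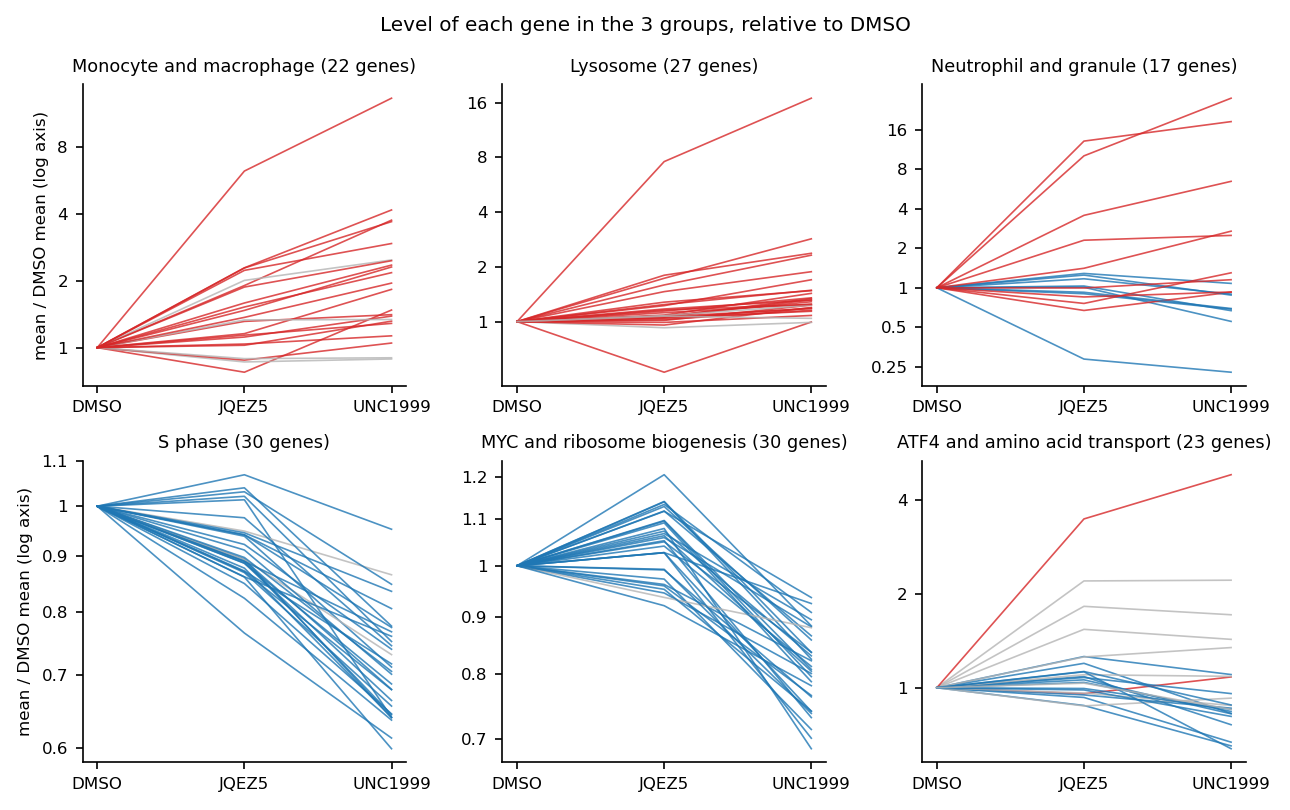
Each line is 1 tested gene and joins its mean level with DMSO, JQEZ5 and UNC1999, all divided by the DMSO mean (log axes that differ between panels), coloured by its call between UNC1999 and JQEZ5 as above. Most MYC and ribosome biogenesis genes peak at JQEZ5, while most S phase genes step down from DMSO to JQEZ5 and again to UNC1999.

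Cytosolic ribosomal protein genes moved less. Of 30 tested, 14 were lower under UNC1999 (46.7%, against 17.7% of all tested genes) and none higher (median -0.10). Rps18 was at 5883, 5193 and 5097 against 7442, 6556 and 6352, and Rplp0 at 39037, 37101 and 36492 against 43839, 40949 and 42242. Rpl28 had a difference of 0.00 (95% interval -0.09 to 0.08). These genes have many processed copies in the genome, between which reads may have been divided. The same holds for the elongation factor gene Eef1a1, the lower gene with the most normalised counts (not divided by length), at 0.929 times the JQEZ5 level, a difference of -0.11 that became 0.00 with quantile normalisation. Ptma, the prothymosin gene, was at 28251, 28295 and 26748 against 35951, 38228 and 38142.

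Enzymes that make serine, glycine and one-carbon units were lower with UNC1999. Phgdh, the first enzyme of serine synthesis (chromosome 3, 98313170 to 98339990, minus strand), was at 2793, 2746 and 2752 with UNC1999, 4098, 3961 and 4032 with JQEZ5 and 4478, 4366 and 4439 with DMSO. Psat1, the second, was at 1458, 1401 and 1498, 2179, 2330 and 2211, and 2490, 2462 and 2316. Psph, the third, was at 542, 567 and 508, 750, 758 and 738, and 715, 673 and 736, and the mitochondrial enzyme Shmt2 that passes serine to glycine was at 1658, 1626 and 1647, 2389, 2383 and 2472, and 2552, 2584 and 2538. UNC1999 was the lowest group in all 4, at 0.648 to 0.72 times the JQEZ5 level. Of 16 tested members, 13 were lower with UNC1999 and 2 higher (median -0.28), the same 13 in number without UNC1999 replicate 3. One of the 2 higher, the mitochondrial folate dehydrogenase gene Aldh1l2, was at 149, 140 and 231 against 118, 114 and 107.

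Targets of the amino acid response factor ATF4 did not act as 1 group. Of 23 tested genes, 13 were lower with UNC1999 and 2 higher (65.2% called, against 36.4% of all tested genes, median -0.16). Asns, asparagine synthetase (chromosome 6, 7675169 to 7693254, minus strand), was at 1124, 1205 and 1182 with UNC1999, 1696, 1772 and 1616 with JQEZ5 and 1448, 1411 and 1382 with DMSO. It was above DMSO with JQEZ5 (1.2-fold, limma adjusted p = 0.000448) and below it with UNC1999 (0.828 times, limma adjusted p = 0.000134). Bcat1, the cytosolic transaminase of branched-chain amino acids, was at 509, 476 and 465 with UNC1999, 844, 846 and 869 with JQEZ5 and 730, 783 and 761 with DMSO. The neutral amino acid transporter gene Slc7a5 and the glycyl-tRNA synthetase gene Gars were at 0.7 and 0.778 times JQEZ5. The cystine transporter gene Slc7a11 went the other way. It was at 773, 774 and 788 with UNC1999, 532, 603 and 547 with JQEZ5 and 172, 160 and 151 with DMSO. Atf5, at 790, 727 and 676 against 790, 683 and 707, was 2.21-fold and 2.2-fold above DMSO, with a difference between the inhibitors of 0.01 (95% interval -0.11 to 0.13). Letters of the response element read by ATF4 and C/EBP factors, TGATGCA or TGATGAA, were on 5 of 11 promoter windows of the called lower genes (45.5%), against 3.82% of windows of all tested genes and 6.44% of all windows. Asns is shown because its promoter is a textbook case of that element, here 23 bases before the start in capitals (chr6:7693210-7693359, minus strand).
Asns: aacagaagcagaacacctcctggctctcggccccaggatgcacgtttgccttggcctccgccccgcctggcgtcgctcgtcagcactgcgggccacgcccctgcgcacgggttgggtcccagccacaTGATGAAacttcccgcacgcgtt

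Genes of the endoplasmic reticulum and its stress response were called in both directions. Of 24 tested, 11 were lower with UNC1999, all of them chaperones, folding enzymes or secreted stress proteins, and 4 higher (median -0.06). That is 62.5% called, against 36.4% of all tested genes. Calr, the calcium-binding chaperone calreticulin, was at 22723, 23057 and 22366 with UNC1999, 28658, 28565 and 29235 with JQEZ5 and 26696, 26507 and 27123 with DMSO. Sdf2l1 was at 0.646, Hsp90b1 at 0.833 and Hyou1 at 0.839 times the JQEZ5 level. The sensor kinase gene Ern1 and the degradation adaptor gene Sel1l were 1.13-fold higher each (limma adjusted p = 0.00327 and 0.000331). All 9 promoter windows found for the lower genes held CCAAT, the box that forms part of the endoplasmic reticulum stress element, against 38.3% of windows of all tested genes.

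Lipid genes were called in both directions. Abca1, which exports cholesterol (chromosome 4, 53030787 to 53159895, minus strand), was at 943, 1040 and 928 with UNC1999, 305, 283 and 291 with JQEZ5 and 135, 175 and 165 with DMSO, 3.31-fold apart between the inhibitors (limma adjusted p = 3.18e-10). Nceh1, a cholesteryl ester hydrolase, was at 875, 965 and 985 against 643, 679 and 690, and the lipid droplet coat gene Plin2 was 1.14-fold higher. Lower genes were mostly enzymes of synthesis. Fasn, fatty acid synthase, was at 1307, 1252 and 1158 with UNC1999, 1694, 1582 and 1614 with JQEZ5 and 1995, 2088 and 1948 with DMSO, and the isoprenoid enzyme genes Fdps and Idi1 were at 0.714 and 0.73 times JQEZ5. Srebf2, the master factor of cholesterol synthesis, was at 1822, 1741 and 1563 against 2171, 2033 and 2078. Of 28 tested fatty acid, droplet and efflux genes, 12 were higher and 5 lower with UNC1999 (60.7% called, against 36.4% of all tested genes). Of 23 cholesterol synthesis genes, 10 were lower (43.5%, against 17.7% of all tested genes) and none higher (median -0.12). For Acly, which supplies acetyl-CoA, the difference was 0.00 (95% interval -0.07 to 0.07).

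Genes of the respiratory chain gave small differences in 1 direction. Of 30 tested oxidative phosphorylation genes, 18 were lower with UNC1999 (60%, against 17.7% of all tested genes) and none higher. The median was -0.12, the range ran from -0.30 to -0.01, and 12 did not pass. The cytochrome gene Cyc1 was at 1652, 1679 and 1647 with UNC1999 and 2183, 1975 and 2129 with JQEZ5, and Atp5b, of the ATP synthase, at 12876, 12738 and 13081 against 15134, 14381 and 14946. Of 28 glycolysis and hypoxia genes, 10 were higher (35.7%, against 18.7% of all tested genes) and none lower. The vasoactive peptide gene Adm was at 589, 578 and 559 with UNC1999, 274, 295 and 305 with JQEZ5 and 325, 298 and 303 with DMSO, an increase over both. The neuronal-type glucose transporter gene Slc2a3 was at 2670, 2656 and 2747, 2035, 2078 and 1991, and 3312, 3182 and 3153, with JQEZ5 lowest, and the erythroid-type transporter gene Slc2a1 was 1.2-fold higher with UNC1999. Pdk1, a kinase gene induced by hypoxia, had a difference of 0.00 (95% interval -0.07 to 0.07).

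Antioxidant and iron genes were called in both directions. Of 28 tested, 13 were higher with UNC1999 and 5 lower (64.3% called, against 36.4% of all tested genes, median 0.08). The phagosomal metal transporter gene Slc11a1 was at 2700, 2699 and 2504 against 1571, 1435 and 1594, the peroxiredoxin gene Prdx1 was 1.31-fold and the sulfiredoxin gene Srxn1 1.29-fold higher. The 5 lower genes were enzymes of haem and glutathione metabolism. Alas1, the first step of haem synthesis, was at 5650, 5555 and 5504 against 6784, 6536 and 6519, and Gsr and Gclc were at 0.876 and 0.847 times JQEZ5. The ferritin genes Fth1 and Ftl1 were 1.23-fold and 1.14-fold higher, but with quantile normalisation the differences became 0.00 and 0.01. Of 9 tested aryl hydrocarbon receptor target and drug efflux genes, 5 were higher with UNC1999 and 1 lower. That is 66.7% called, against 36.4% of all tested genes. The efflux genes Abcc3 and Abcc1 were higher, Abcc3 at 1173, 1321 and 1176 against 781, 732 and 762. The lower one was the efflux gene Abcb1b at 0.822 times JQEZ5 (limma adjusted p = 0.0383, and 0.149 without UNC1999 replicate 3), and for Abcg2 the difference was -0.04 (95% interval -0.15 to 0.06).

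Genes of PRC2 itself, the complex that both compounds inhibit, were compared next. Ezh2 was at 1355, 1442 and 1192 with UNC1999, 1712, 1812 and 1730 with JQEZ5 and 1748, 1687 and 1821 with DMSO, and only the UNC1999 libraries stood below the rest. The log2 difference of Ezh2 between the inhibitors was -0.35 ± 0.05 (0.759 times JQEZ5, limma adjusted p = 6.65e-05). An exact permutation test of 3 against 3 libraries cannot go below p = 0.1 (2-sided), and it gave that value for Ezh2. Its paralog Ezh1 was at 992, 1000 and 1035 with UNC1999 and 879, 836 and 867 with JQEZ5, a log2 difference of 0.19 ± 0.04 in the opposite direction (limma adjusted p = 0.00122). Of 14 tested subunit genes 7 were lower and 1 higher with UNC1999 (57.1% called, against 36.4% of all tested genes, median -0.10). The histone-binding subunit genes Rbbp4 and Rbbp7 were at 0.85 and 0.825 times JQEZ5, and the targeting subunit gene Mtf2 at 0.83. Eed, without which the complex has no activity, was at 533, 567 and 528 against 564, 526 and 532, with a difference of 0.00 (95% interval -0.09 to 0.09).

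Several methyltransferases for lysine 4 of histone H3, a mark of active genes, were higher with UNC1999. Kmt2d was at 889, 917 and 1034 with UNC1999, 716, 643 and 664 with JQEZ5 and 662, 702 and 691 with DMSO, Kmt2c was 1.29-fold and Kmt2a 1.22-fold higher. Kdm5b, the lysine 4 demethylase the study is about (chromosome 1, 134560171 to 134635285, plus strand), was at 875, 903 and 880, 666, 658 and 649, and 624, 595 and 604. Its 3 groups did not overlap, the log2 difference between inhibitors was 0.34 ± 0.04 (limma adjusted p = 5.49e-06), and the exact permutation test gave its lowest possible p of 0.1. Of 16 tested histone methylation regulators outside PRC2, 8 were higher and 2 lower (62.5% called, against 36.4% of all tested genes). The lower ones were the lysine 36 methyltransferase gene Whsc1, at 0.871 times JQEZ5, and a lysine 4 methyltransferase gene, Setd1a. Setd1a was at 0.878 times JQEZ5 (limma adjusted p = 0.0471, and 0.156 without UNC1999 replicate 3). The lysine 27 demethylase gene Kdm6b had a difference of 0.03 (95% interval -0.11 to 0.16). Of 16 tested HOX and self-renewal genes, 7 were lower with UNC1999 (43.8%, against 17.7% of all tested genes) and none higher (median -0.10). The largest was the transcription factor gene Sox4, at 138, 100 and 146 against 207, 214 and 177. Meis1, the partner of HOX proteins, had a difference of -0.05 (95% interval -0.15 to 0.06).

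Few cell cycle inhibitors were called. Of 8 tested CDK inhibitor and RB family genes, 2 were higher with UNC1999 and 1 lower (37.5% called, close to the 36.4% of all tested genes), the lower being the RB family gene Rbl1 at 0.802 times JQEZ5. Cdkn2a, a locus silenced by PRC2 in many cells, was at 291, 275 and 332 with UNC1999, 160, 159 and 154 with JQEZ5 and 89.8, 114 and 96.9 with DMSO, 1.9-fold apart between inhibitors (limma adjusted p = 7.07e-06). Cdkn1a, the gene of p21, was 1.14-fold higher (limma adjusted p = 0.00291), and Cdkn1b, of p27, had a difference of 0.06 (95% interval -0.01 to 0.14). Of 25 tested p53 targets, 10 were higher and 4 lower (56% called, against 36.4% of all tested genes, median 0.08). Plk2 was at 643, 623 and 693 with UNC1999, 384, 386 and 390 with JQEZ5 and 113, 129 and 118 with DMSO, while Trp53 itself was at 941, 983 and 822 against 1171, 1090 and 1214 (0.79 times JQEZ5). Of 13 tested Bcl2 family genes, 2 were higher and 2 lower (30.8% called, below the 36.4% of all tested genes). The survival gene Mcl1 was at 9190, 9414 and 9537 against 7211, 7458 and 7173, and the death-promoting Bcl2l11 (BIM) at 1493, 1514 and 1685 against 1184, 1114 and 1203. Both were thus higher with UNC1999, by 1.29-fold and 1.34-fold. The lower ones were the death-promoting genes Pmaip1 (NOXA) and Bid, at 0.877 and 0.911 times JQEZ5 (limma adjusted p = 0.00589 and 0.0207, the latter 0.0964 without UNC1999 replicate 2).

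Interferon and antigen presentation genes stood near the background. Of 18 tested interferon-stimulated genes, 4 were higher and 1 lower (27.8% called), and of 16 MHC presentation genes 3 were higher and 1 lower (25% called), both below the 36.4% of all tested genes. The peptide-loading gene Tapbp was 1.2-fold higher with UNC1999, and the guanylate-binding protein gene Gbp3 was at 292, 313 and 294 with UNC1999 against 440, 465 and 466. B2m, the light chain of class I molecules, had a difference of 0.03 (95% interval -0.04 to 0.09). Von Willebrand factor (Vwf), the 1 tested of 8 listed megakaryocyte and platelet markers, was at 1848, 1889 and 1880 with UNC1999, 949, 891 and 936 with JQEZ5 and 239, 272 and 245 with DMSO.

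Called genes differed in transcript length. The median longest transcript was 4210 bases among genes higher with UNC1999, 2844 among lower and 3283 among all tested genes, with a length known for 96.8% of them. In 4 equal bins of tested genes from shortest to longest, split at 2051, 3283 and 4720 bases, the share called higher was 9.42%, 15.5%, 19.7% and 30.8%, and the share called lower 23.3%, 20.2%, 16.7% and 10.5%. Median GC content was 50.6%, 48% and 49.3% in the same 3 sets. Some nuclear-retained RNAs were higher with UNC1999 as well. Of 5 tested mitochondrially encoded and non-polyadenylated RNAs, 3 were higher with UNC1999 and 1 lower. The 7 listed ones summed to 22318 to 30698 per library with UNC1999, 27247 to 29834 with JQEZ5 and 41175 to 47886 with DMSO. With UNC1999, the 3 RNAs named next made up a minor part of that sum. Malat1 was at 2999, 2529 and 2309 with UNC1999 and 1639, 1552 and 1479 with JQEZ5, with DMSO at 1509, 1644 and 1592. Neat1 was at 1250, 1291 and 1295 against 837, 808 and 791, and the small nuclear RNA Rn7sk at 911, 681 and 819 against 592, 503 and 543. The part of length or of these RNAs in the other results was not tested.

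**Figure D5:**
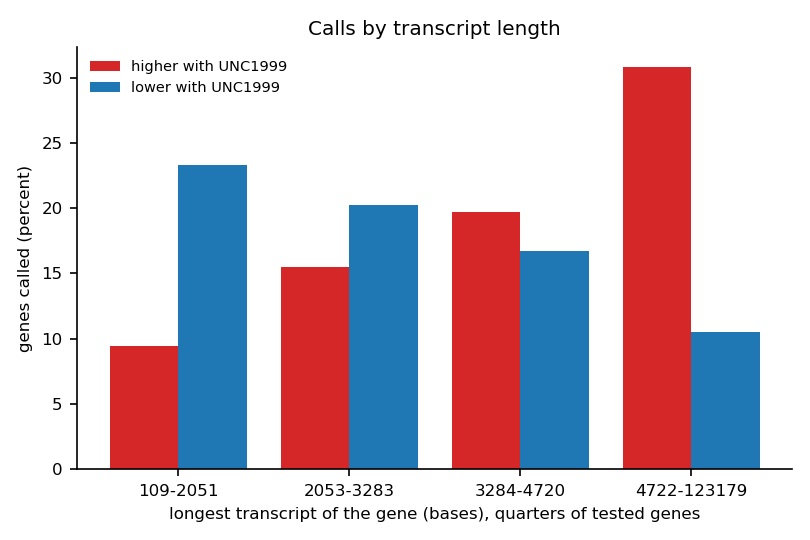
Percent of tested genes called higher (red) and lower (blue) with UNC1999 than with JQEZ5, in 4 equal bins by the length of the longest annotated transcript in bases. The share called higher grows from 9.42% to 30.8%, and the share called lower shrinks from 23.3% to 10.5%.

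The knockdown of Kdm5b gave log2 differences (shKdm5b minus shEV) for some of the same genes in separate libraries. There limma called 3509 of 10810 tested genes (32.5%). The inhibitor and knockdown values have different floors (6.88 and 7.44), so differences of low genes are not on the same scale. That count was 1907, 2006 and 2017 without shEV replicate 1, 2 or 3 and 5556 without shKdm5b replicate 1. The latter library correlated with the other shKdm5b libraries at r of 0.9961 and 0.9957, and those with each other at 0.9975. The shares and calls that follow were not recomputed without it. Over all genes called lower with UNC1999 than with JQEZ5 and tested there, 10.5% were higher and 25.3% lower with shKdm5b, against 15.1% and 17.6% of the genes tested in both tables. Over those called higher, the shares were 23.2% and 21.3%. Of the 59 genes at least 2-fold higher with UNC1999, only 22 were tested there. Of these, 5 were higher (22.7%) and 10 lower (45.5%), against 15.1% and 17.6% of the genes tested in both tables. Their calls went in both directions, with more of them lower. Mmp8 was higher by 0.79 and Ahnak, a large scaffold protein gene, by 0.60, while Adgre1, the kinase substrate gene Marcks and Abca1 were lower by -0.77, -0.70 and -0.63 (adjusted p of these 5 between 5.76e-05 and 0.000849, limma). Muc13, a mucin gene at 1735, 1617 and 1545 with UNC1999 and 2300, 2287 and 2468 with JQEZ5, was higher by 1.73 with shKdm5b (limma adjusted p = 1.34e-07). Ms4a3 and Mpo missed the threshold there, with differences of 0.31 and -0.20 (limma adjusted p = 0.151 and 0.0825).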

How the data were processed

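The authors deposited log2-scale, variance-stabilised expression values per gene for the inhibitor and for the knockdown libraries; per the submitters' processing notes, STAR 2.4.2, Salmon 0.1.19 and DESeq2 1.38.2 were used with mm10 (GRCm38.p4). Per the labels' protocols, 2 library kits were in use; the kit of each library is not given in the sources used here. The transformation was inverted in closed form, which gave whole multiples of 1 step per library for 100% of values (tolerance 0.05) and so the counts and depth. Tests used the deposited values. A gene was tested where 3 libraries exceeded the table's floor by 1 log2 unit or more (59 normalised counts), which left 10694 of 14178. limma 3.58.1 in R 4.3.3 fitted 1 mean per group over the 9 libraries (eBayes with trend, Benjamini-Hochberg over all tested genes, calls at an adjusted p under 0.05), after a test on simulated data. Replicate numbers were not taken to pair libraries, since same-numbered libraries of the inhibitors deviated together at r of 0.16, -0.018 and 0.009.

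The members and gene lists were chosen with earlier results of these data known, so no list was tested as such, and counts and medians are descriptions. Genes named are Kdm5b, Ezh2 and Ezh1; the 15 largest differences each way among called genes without overlap between the inhibitors; up to 4 called members each way with the lowest adjusted p per list and up to 2 that did not pass; and the 5 most abundant called genes each way. Not all of them are printed. Predicted genes and bare identifiers were left out. Mitf, Tfe3 and Tfeb were named outside the rule after their values were seen. Coordinates are from GENCODE M21 (GRCm38), promoter sequences from RefSeq (GRCm38.p6). Alternatives were other filters, centring or quantile normalisation, eBayes settings, a replicate block, only the inhibitor libraries, each library left out, and voom on recovered counts. The MLL-AF9 libraries were not used here.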

Additional observations from a re-analysis of the deposited data

How the results depend on the processing

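The counts of genes higher and lower with UNC1999 than with JQEZ5 stayed within 1.5 times of 2003 and 1889 under all 18 alternatives, from 1643 to 1961 and 1487 to 1866 over the libraries left out in turn, 1994 and 1817 with no filter, 1810 and 1999 after quantile normalisation, 2134 and 1732 after centring on the median and 1656 and 2322 with voom, where 41.6% of calls were higher against 51.5%. For each list with 8 or more calls, the count in the direction with more calls was recomputed, and none moved by more than 1.5 times; other list counts were not recomputed. The counts at 2-fold rest on low genes: they were 134 higher and 44 lower with no filter, 27 and 2 with a filter at 2 log2 units, and 4 lower with robust eBayes settings; leaving out 1 library gave 3 to 21 lower. The replicate numbers were not taken to pair the libraries, and the fit with a replicate block gave 1931 higher and 1844 lower. Of 173 named genes called, 151 kept direction and call under every alternative that tested them. Quantile normalisation reversed the sign for Eef1a1 (0.00), Fth1 (0.00), Ndrg1 (-0.11) and F13a1 (-0.10, limma adjusted p = 0.0284). It also ended the calls of Ftl1 (0.01), Psap (0.04), Atf6 (0.08) and Klf2 (-0.13). The knockdown count of 3509 ranged from 1907 to 5556 over the libraries left out. Depth limits statements on genes under 59 normalised counts, which were not tested.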
